A study of Mus musculus with 35 samples.

Results

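The genes of the major histocompatibility complex (MHC) and of antigen presentation were followed in brown adipose tissue of Suv420h double-knockout mice and of control mice. The members are every gene whose name begins with H2-, the mouse MHC prefix, plus B2m, Tap1, Tap2, Tapbp, Psmb8, Psmb9, Psmb10, Psme1, Psme2, Cd74, Ciita, Nlrc5, Erap1, Calr, Canx and Pdia3. This gave 33 members of 13364 genes counted in the series. Of these, 28 were counted at 4 weeks and 33 at 21 weeks, and 27 and 31 passed the filter on low counts. H2-DMb2, H2-Q4, H2-Q6, H2-T23 and H2-M3 had counts at 21 weeks only. H2-M9 did not pass the filter at either age and H2-M3 did not pass it at 21 weeks.

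At 4 weeks, on normal diet, there were 6 knockout libraries, 5 labelled female and 1 labelled male, and 9 control libraries, 5 labelled female and 4 labelled male. At 21 weeks all libraries were labelled female, with 5 knockout and 5 control libraries on high fat diet (45 kJ% fat, given for 14 weeks) and 5 knockout and 5 control libraries on normal diet. The name Suv420h covers the paralogs Suv420h1 and Suv420h2, methyltransferases of histone H4. The labels name mice only as control or knockout; allele design and any Cre driver were not given in the sources used here. Nothing in the labels says that replicates came from separate animals, so p-values measure the spread between these libraries, which may be technical.

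Class I molecules, a heavy chain paired with the light chain B2m, show peptides made in the cytosol to CD8 T cells and occur on nearly all nucleated cells. The proteasome cuts the peptides, the Tap1/Tap2 transporter carries them into the endoplasmic reticulum, and Tapbp, Calr and Pdia3 help to load them. Class II molecules show peptides from endosomes to CD4 T cells and are made mainly by dendritic cells, macrophages and B cells, with Cd74 as the chaperone that fills the groove until loading. Nlrc5 and Ciita are the coactivators of the class I and class II genes, and interferon gamma induces both sets.

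Counts are tags from the 3' ends of polyadenylated RNA, and levels are given as CPM, in which each library's counts are scaled by its total and its TMM factor. Total counts ran from 3069035 to 8140213 at 4 weeks and from 2398807 to 7693388 at 21 weeks. The targeted genes, by the names Suv420h1 and Suv420h2, were not among the genes with counts at 4 weeks. Their levels were thus not checked there. At 21 weeks on normal diet, Suv420h2 was lower in knockout than in control libraries (log2 fold change -1.48, edgeR adjusted p = 0.0218), and on high fat diet it was not called (-0.76, adjusted p = 0.913). Suv420h2 was as low in control libraries on high fat diet, which averaged 17.6 CPM, against 49.9 CPM in control libraries on normal diet (-1.50, edgeR adjusted p = 0.0334), as in knockout libraries on normal diet (17.9 CPM), so its level does not mark the knockout across diets. Suv420h1 had log2 fold changes of -0.10 and 0.30 on the normal and the high fat diet, with edgeR adjusted p = 0.838 and 0.999; where its tags lie relative to the deleted part was not checked. Brown adipocyte markers summed to between 15700 and 52000 CPM in every library. Leukocyte markers summed to between 23.4 and 121 CPM, and 0 of 13 T and NK cell markers were among the genes with counts. B cell markers had counts for 1 of 10 genes at 4 weeks and 2 of 10 at 21 weeks, and dendritic cell markers for 2 and 3 of 10. In bulk tissue, fewer cells of a type and less RNA per cell cannot be told apart.

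Of the 33 members, 22 lie on mouse chromosome 17 (GRCm38), among them all 17 H2- genes, and 11 lie elsewhere. Close copies limit some counts: of the 50-base words in the last 500 transcript bases, 59.2% for H2-T22, 55.2% for Psme2, 38.1% for H2-T23, 35.9% for H2-Q6, 33.7% for H2-Q4 and 20.4% for H2-DMb1 also occur in other genes. For H2-Q10 and H2-K1 the share was 0.443%, for H2-D1 9.53%, and for H2-M9 0%. Values of the first 6 genes are therefore uncertain. Tap1 overlaps Psmb9, and B2m overlaps Patl2, each on the opposite strand; whether the counting used strand was not given in the sources used here.

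Promoters of 3 class I genes are shown because their genes had unlike values in the knockout comparison on normal diet at 21 weeks. Only H2-Q10 was called, and it was lower. H2-Q4 was higher with groups that did not overlap, as for 2.53% of all genes, but was not called. H2-K1 changed little and was not called. Whether the motifs relate to these values was not tested. Each is the 200 bases before the annotated start, 5' to 3' on the strand of the gene, from RefSeq on GRCm38.p6. These are H2-K1 at chr17:34000348-34000547 on the minus strand, H2-Q4 at chr17:35379417-35379616 on the plus strand and H2-Q10 at chr17:35469889-35470088 on the plus strand. Capitals mark 5 exact motifs searched on both strands. The longest run of capitals in the H2-K1 promoter is the NF-kB motif, and the next, also in the other promoters, is the interferon-stimulated response element (ISRE). One short motif is TGACG. Another is CCAAT, read on the other strand as ATTGG. The last is TATAAA.
H2-K1: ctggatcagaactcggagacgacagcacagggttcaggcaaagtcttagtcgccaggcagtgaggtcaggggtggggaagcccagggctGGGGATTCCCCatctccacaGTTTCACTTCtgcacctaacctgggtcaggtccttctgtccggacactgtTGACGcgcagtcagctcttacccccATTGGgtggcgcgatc
H2-Q4: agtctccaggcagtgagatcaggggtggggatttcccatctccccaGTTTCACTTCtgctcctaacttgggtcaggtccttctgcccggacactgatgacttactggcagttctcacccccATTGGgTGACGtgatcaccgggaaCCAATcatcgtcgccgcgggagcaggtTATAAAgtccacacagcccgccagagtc
H2-Q10: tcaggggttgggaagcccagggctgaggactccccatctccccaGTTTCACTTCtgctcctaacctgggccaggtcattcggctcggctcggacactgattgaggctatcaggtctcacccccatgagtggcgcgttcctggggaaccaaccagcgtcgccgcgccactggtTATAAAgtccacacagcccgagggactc
H2-K1 held all of these letters but TATAAA, H2-Q4 all but those of NF-kB, and H2-Q10 only those of ISRE and TATAAA. Among all 27025 promoters of the same length, NF-kB occurred in 0.0222%, ISRE in 0.0814%, TGACG in 15.8%, CCAAT in 30% and TATAAA in 10.6%. Of 27 members with a promoter in that table, 3 held NF-kB, 7 ISRE, 13 TGACG, 19 CCAAT and 5 TATAAA. All the members with NF-kB or ISRE were among the 10 class I heavy chain genes. These are matches of exact letters, not shown binding sites, and variants of a motif were not counted. An absent match, as of NF-kB in H2-Q4, therefore does not show that a related site is absent. How far the choice of letters sets the members' counts was not tested.

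In 4-week brown fat 1 member was called: Psme1, a subunit of the PA28 activator that opens the proteasome and is induced by interferon gamma, was lower in knockout libraries. It reached 26.2, 30.7 and 38.6 CPM (lowest, median and highest of 6) in knockout libraries, against 41.0, 44.1 and 56.3 CPM (of 9) in control libraries. No knockout library reached the lowest control library. Psme1 averaged 31.2 ± 5.28 CPM in knockout and 45.8 ± 4.53 CPM in control libraries (SD, n = 6 and 9), and it fell by 0.55 ± 0.13 on the log2 scale (SE, edgeR quasi-likelihood test, Benjamini-Hochberg adjusted p = 0.0498). Psme1 (chromosome 14, 55578123 to 55581529, plus strand) overlaps Emc9 on the other strand and shares 17.5% of its 3' end words with other genes. The call was lost in 14 of 15 fits that left out 1 library and held only without control replicate 1; the highest adjusted p was 0.191, without knockout replicate 1. Of all 10366 genes tested, 0.83% were called (0.328% lower), and groups did not overlap, with knockout lower, for 0.241%, against 1 of 27 members on each count.

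**Figure D1:**
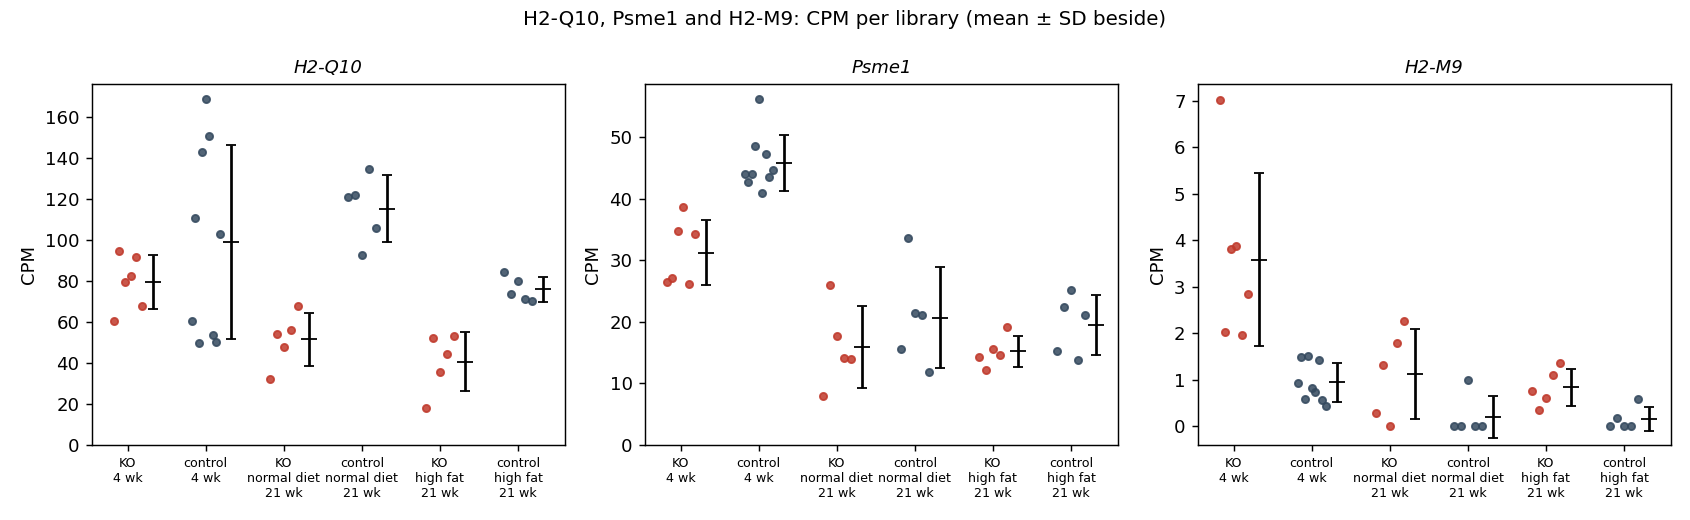
CPM of H2-Q10, Psme1 and H2-M9 in each library (points), with the mean ± SD beside, for knockout (KO, red) and control (blue-grey) libraries of 4 weeks and 21 weeks. Knockout and control points separate for H2-Q10 on both diets at 21 weeks, and for Psme1 and H2-M9 at 4 weeks.

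Most other members had negative values at 4 weeks, without a call. The log2 fold change was below 0 for 22 of 27 members, against 50.9% of all genes, and the median was -0.33, against -0.01 over all genes. At an unadjusted p below 0.05 there were 5 members (Psme1, H2-D1, H2-T22 and H2-T24 lower, and Canx higher), against 15.9% of all genes. H2-T24 averaged 1.63 ± 1.09 CPM in knockout and 3.58 ± 2.08 CPM in control libraries, with a log2 fold change of -1.42 ± 0.37 (edgeR adjusted p = 0.0754). The classical heavy chains H2-K1 and H2-D1, which present to CD8 T cells, each had -0.33 ± 0.16 (edgeR adjusted p = 0.327 and 0.310). H2-K1 ran from 206 to 359 CPM in knockout and from 305 to 677 CPM in control libraries, and H2-D1 from 108 to 175 CPM in knockout and from 128 to 400 CPM in control libraries, so that both overlapped. The class II chains H2-Aa, H2-Ab1 and H2-Eb1 and their chaperone Cd74 lay between -0.12 and 0.09. These values depended on the model and on single libraries. H2-Aa was at -1.13 with no term for sex, -0.44 with the side of the first principal component on which a library lay in its place, 0.50 without knockout replicate 1 and -0.24 without knockout replicate 2, none of them called. Over the alternatives H2-Ab1 ran from -1.20 to 0.24 and Cd74 from -0.96 to 0.45. Among loading genes, Canx, a chaperone of newly made glycoproteins, averaged 306 ± 43.2 CPM in knockout and 242 ± 26.3 CPM in control libraries (0.33 ± 0.12, edgeR adjusted p = 0.195). Tap1 had -0.53 ± 0.30, and the immunoproteasome subunit Psmb8 had -0.27 ± 0.27 (edgeR adjusted p = 0.402 and 0.656). Tap1 ran from 3.35 to 27.1 CPM in knockout and from 6.13 to 22.1 CPM in control libraries, and Psmb8 from 4.57 to 19.9 and from 10 to 15.3 CPM. The coactivators Nlrc5 and Ciita had -0.84 ± 0.47 and -0.55 ± 0.42 (edgeR adjusted p = 0.393 and 0.538). Nlrc5 ran from 0.176 to 2.68 CPM in knockout and from 0.644 to 3.71 CPM in control libraries, and Ciita from 0.334 to 2.30 and from 0.429 to 3.93 CPM. Leukocyte markers pointed the same way, with 8 of 8 tested markers below 0 and a median of -0.56, none of them called. Their summed level was 39.4 to 86.5 CPM in knockout and 39.7 to 121 CPM in control libraries. Macrophage markers were more mixed, with 8 of 12 tested below 0 and 4 above, a median of -0.21 and none called. They summed to 221 to 381 CPM in knockout and 174 to 425 CPM in control libraries. With a leukocyte score as a term, 20 of 27 members were below 0 with a median of -0.23, and 0 were called (Psme1 -0.63, edgeR adjusted p = 0.0887). Brown adipocyte markers lay the other way, with 8 of 10 above 0, a median of 0.31 and Elovl3, a fatty acid elongase, called higher (1.88, edgeR adjusted p = 0.0179). They summed to 26500 to 43700 CPM in knockout and 21900 to 37300 CPM in control libraries, and their part in the members' values was not tested.

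**Figure D2:**
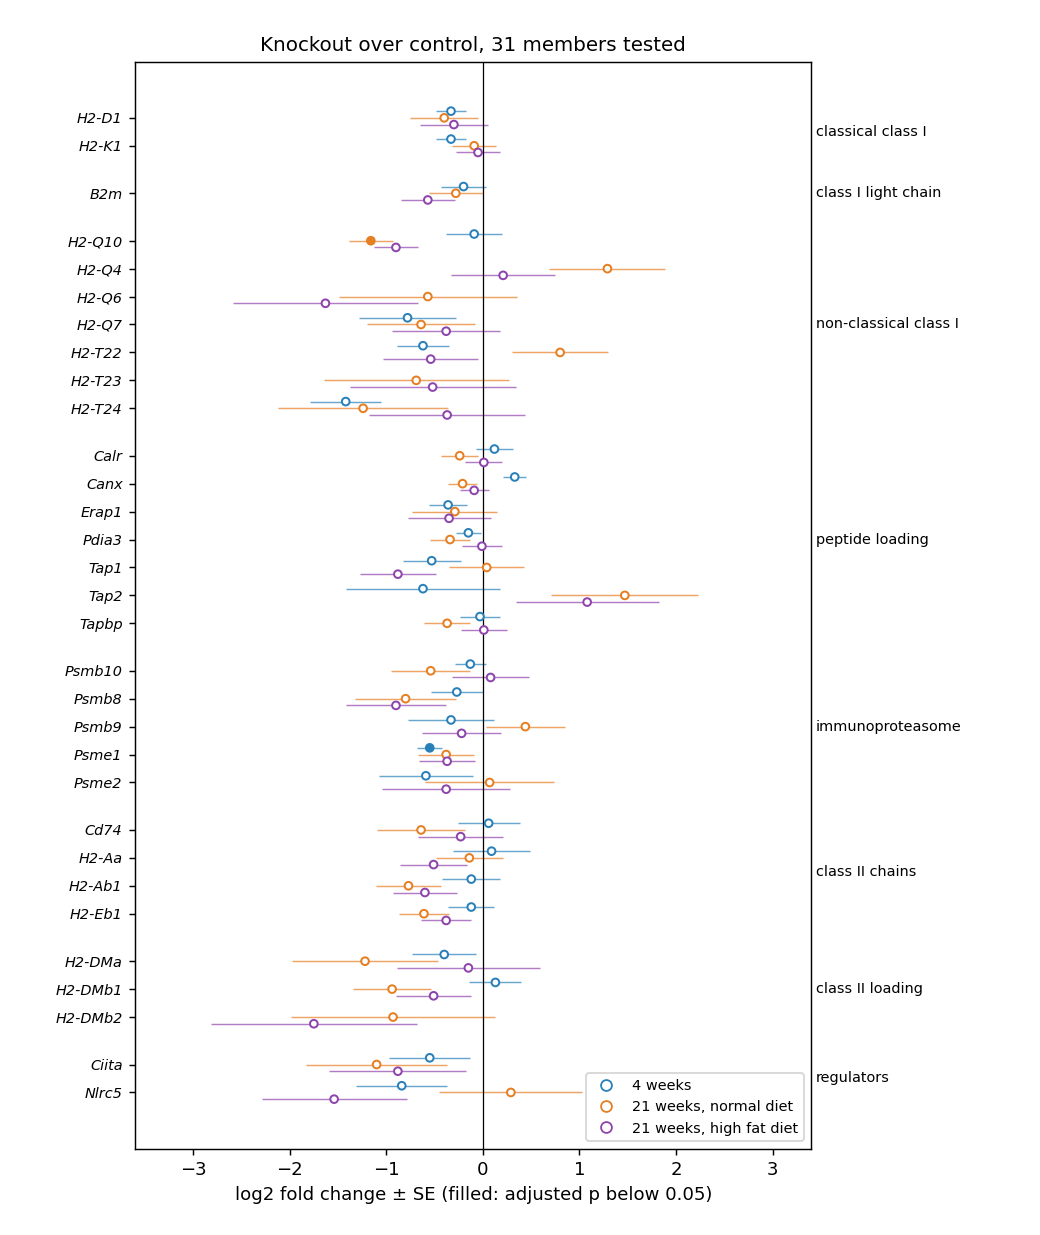
Log2 fold change ± SE of each tested member, knockout over control, at 4 weeks (blue, 27 members) and at 21 weeks on normal diet (orange) and high fat diet (purple, 31 members each), grouped by role. Filled points have an adjusted p below 0.05; these are Psme1 at 4 weeks and H2-Q10 at 21 weeks on normal diet.

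H2-M9, a class Ib gene of the M region whose relatives are known from vomeronasal sensory neurons, was the exception among low members at 4 weeks. It did not pass the filter on low counts and is singled out after its values were seen. Its counts were 46, 7, 24, 22, 10 and 17 in the 6 knockout libraries, against 3, 9, 3, 12, 5, 3, 8, 3 and 2 in the 9 control libraries. As CPM these were 7.01, 2.02, 3.82, 3.87, 1.96 and 2.84 in knockout libraries, against 0.429 to 1.5 in control libraries, without overlap. The share of all genes with such a gap, knockout higher, is not given here. In the fit without that filter H2-M9 (chromosome 17, 36639285 to 36642666, minus strand) rose by 2.02 ± 0.32 on the log2 scale (edgeR adjusted p = 0.00465), where 0.438% of 10731 genes were called higher. It stayed called in 14 of 15 fits without 1 library; without knockout replicate 1 the adjusted p was 0.0842. The call was lost among libraries labelled female (adjusted p = 0.133), with the replicate block (0.361) and within each of the 2 sets into which the first principal component split the libraries (0.294 and 0.0851). At 21 weeks H2-M9 stood at 0.282, 1.31, 0, 1.80 and 2.26 CPM in knockout and 0, 0, 0.999, 0 and 0 CPM in control libraries on normal diet. On high fat diet it stood at 0.752, 0.357, 0.615, 1.09 and 1.35 CPM in knockout, against 0, 0.177, 0, 0 and 0.581 CPM in control libraries. Neither was called (edgeR without the filter, adjusted p = 0.306 and 1), where 1.24% and 0.0907% of 13233 genes were called higher. Without control replicate 3 on normal diet, the control library with H2-M9 counts, the adjusted p was 0.0481.

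The 15 libraries of 4 weeks fell into 2 sets along the first principal component, which held 52.8% of the variance, and many members differed between the sets. Set 1 held knockout replicates 1 and 2 and control replicates 1, 4, 5 and 6, and set 2 the other libraries; the sets follow the order of the count columns and are not named in the labels. Set and labelled sex coincide except for knockout replicate 2, so that the 2 cannot be told apart. Xist, the RNA of the inactive X chromosome, went against the labelled sex in knockout replicate 2 (1.73 CPM, labelled female) and in control replicate 6 (238 CPM, labelled male). Within control libraries, set 1 over set 2, edgeR called 9 members higher and 5 lower of 27, against 32.9% of all genes. The sets were drawn from these same counts, so that many calls between them were fixed in advance. These values describe the sets and are no separate test of a difference. The class II chains H2-Aa and H2-Ab1 were higher by 2.80 and 1.77 on the log2 scale in set 1, Cd74 by 1.83 and B2m by 1.79. Psme2, the partner of Psme1, was lower by a log2 fold change of -3.32, and Tap1 by -1.10.

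Knockout and control libraries stood further apart in set 1 than in set 2 for most members, without a called difference. In set 1, B2m stood at 314 and 297 CPM in knockout libraries, against 765, 562, 523 and 872 CPM in control libraries. In set 2, B2m ran from 132 to 234 CPM in knockout and from 154 to 231 CPM in control libraries. B2m thus separated the genotypes in set 1, with its 2 knockout libraries, and overlapped in set 2. The share of all genes that separated in set 1 was not computed. The class II genes H2-Aa, H2-Ab1, H2-Eb1 and Cd74 had log2 fold changes of -1.33, -1.21, -1.05 and -0.97 in set 1 and of 0.16, 0.10, 0.08 and 0.26 in set 2, none of them called (edgeR adjusted p of 0.216, for H2-Eb1 in set 1, the lowest). In set 1 the log2 fold change of B2m was -1.16 ± 0.26, and those of H2-D1, H2-K1, H2-T22 and Psmb8 were -1.05, -0.92, -1.68 and -1.44. None was called (edgeR adjusted p = 0.0926, 0.0534, 0.0987, 0.0709 and 0.0723), and 0 members were called within either set, where 0.164% of all genes were called in set 1 and 0.309% in set 2. At an unadjusted p below 0.05 there were 16 of 27 members in set 1, 15 of them negative, against 9.57% of all genes, and 2 members in set 2, against 14.5%. The members' median was -0.97 in set 1 and -0.05 in set 2, beside -0.01 over all genes in each. The difference between the sets itself had 13 members at an unadjusted p below 0.05, all of them more negative in set 1, against 5.02% of all genes. It had 0 members called (edgeR adjusted p of 0.370 for Psmb8, the lowest), against 0.0289% of all genes. Set 1 has only 2 knockout libraries. Leukocyte markers there summed to 44.6 and 48.0 CPM in knockout and from 46.6 to 71.0 CPM in control libraries, and macrophage markers to 221 and 289 CPM in knockout and from 201 to 333 CPM in control libraries.

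**Figure D3:**
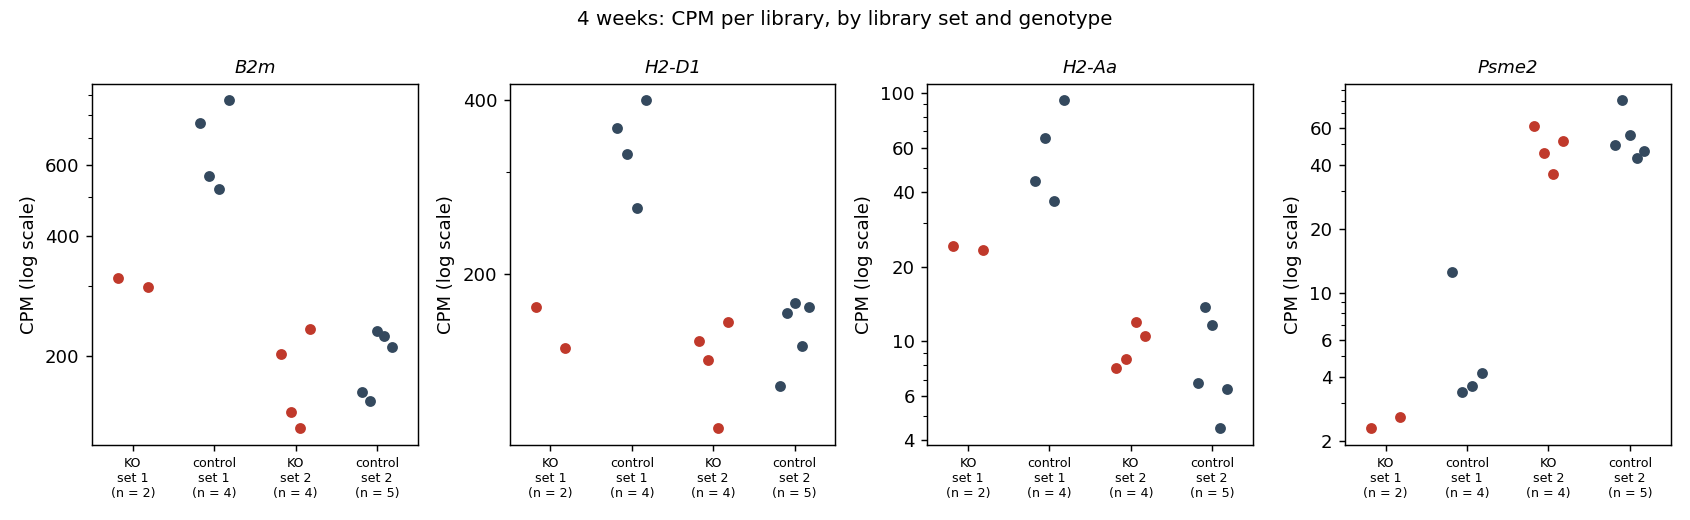
CPM (log scale) of B2m, H2-D1, H2-Aa and Psme2 in each 4-week library, by library set and genotype (knockout red, control blue-grey). In set 1, B2m is at 297 and 314 CPM in knockout and 523 to 872 CPM in control libraries; in set 2 the genotypes overlap, and Psme2 separates the sets.

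At 21 weeks on normal diet, H2-Q10 was lower in knockout brown fat and was the only member called. H2-Q10 encodes a secreted class Ib molecule, known mainly as a product of the liver. It stood at 32.1, 54.0, 47.9, 56.2 and 67.7 CPM in knockout libraries, against 121, 122, 92.7, 135 and 106 CPM in control libraries. Every knockout library lay under every control library. It averaged 51.6 ± 13.1 CPM in knockout and 115 ± 16.4 CPM in control libraries (SD, n = 5 each) and fell by 1.16 ± 0.23 on the log2 scale (SE, edgeR quasi-likelihood test, Benjamini-Hochberg adjusted p = 0.0104). H2-Q10 lies on chromosome 17 from 35470089 to 35474563, plus strand (GRCm38). Of 12082 genes tested, 2.65% were called (1.36% lower), against 1 of 31 members. The call held in 20 of 20 fits without 1 library. It was lost with a skeletal muscle score as a term (-1.17, adjusted p = 0.0528) and without control replicates 2 and 4, which were rich in muscle RNA (-1.04, adjusted p = 0.0538). Muscle markers summed to between 141 and 2720 CPM in knockout and between 301 and 44400 CPM in control libraries on normal diet, the 2 highest being those replicates.

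The other members on normal diet leaned negative without a call. Of 31 members 24 had a log2 fold change below 0, against 49% of all genes, and the median was -0.38, against 0.02 over all genes. At an unadjusted p below 0.05 there were 5 members, against 20.8% of all genes. Apart from H2-Q10 these were H2-Ab1, H2-Eb1 and H2-DMb1, all lower, and H2-Q4, higher. The class II chains had a median of -0.63 over 4 genes and the peptide-loading H2-DM genes one of -0.94 over 3 genes, with 7 of these 7 below 0. H2-Ab1, the beta chain of I-A, stood at 6.19, 12.3, 13.3, 9.96 and 9.27 CPM in knockout and at 19.0, 32.3, 13.5, 4.50 and 17.2 CPM in control libraries. All but control replicate 4 were above the knockout libraries, and the log2 fold change was -0.77 ± 0.34 (edgeR adjusted p = 0.200). H2-Aa, the alpha chain, had -0.14 ± 0.35, with 17.2 to 44.0 CPM in knockout and 18.4 to 53.4 CPM in control libraries (edgeR adjusted p = 0.851). Cd74 had -0.64 ± 0.46, with 1.25 to 5.63 CPM in knockout and 1.26 to 8.99 CPM in control libraries (edgeR adjusted p = 0.441). Macrophage markers summed to 134 to 191 CPM in knockout and 174 to 379 CPM in control libraries, and 12 of 14 were below 0 with none called. Leukocyte markers summed to 27.0 to 43.0 CPM in knockout and 37.7 to 71.1 CPM in control libraries, and 7 of 8 were below 0. Of 3 tested dendritic cell markers, Cst3 was called higher in knockout libraries (1.00 ± 0.23, edgeR adjusted p = 0.0241), and the other 2 were below 0, with a median of -0.41 over the 3. With a leukocyte score as a term, 22 of 31 members were below 0 with a median of -0.25, H2-Q10 stayed called (-1.17, edgeR adjusted p = 0.0126), and H2-Ab1 was at -0.37 ± 0.27, H2-Aa at -0.02 and Cd74 at -0.71. The part of macrophages and dendritic cells was not tested.

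Among class I genes other than H2-Q10 none was called on normal diet. H2-K1 and H2-D1 had -0.09 ± 0.23 and -0.40 ± 0.35, and B2m had -0.28 ± 0.28 (edgeR adjusted p = 0.845, 0.533 and 0.579). H2-D1 stood at 197, 346, 271, 329 and 359 CPM in knockout and at 534, 727, 295, 178 and 249 CPM in control libraries, so that control replicates 1 and 2 lay above all others. H2-K1 ran from 216 to 394 CPM in knockout and from 186 to 420 CPM in control libraries. B2m ran from 142 to 258 CPM in knockout and from 141 to 398 CPM in control libraries, so that both genes overlapped between the genotypes. H2-Q4, singled out because its groups did not overlap, stood at 2.82, 3.41, 3.81, 3.32 and 4.32 CPM in knockout and at 1.41, 0.251, 2.62, 0.450 and 1.93 CPM in control libraries. Its log2 fold change of 1.29 ± 0.60 was not called (edgeR adjusted p = 0.221). Across all genes, groups did not overlap with knockout higher for 2.53% and with knockout lower for 1.8%, against 1 of 31 members each. Psmb8 had -0.80 ± 0.52, with 6.36 to 17 CPM in knockout and 4.95 to 48.9 CPM in control libraries, and Tap1 had 0.04 ± 0.39 (edgeR adjusted p = 0.391 and 0.962). Tap1 ran from 4.12 to 9.32 CPM in knockout and from 3.15 to 9.52 CPM in control libraries. Nlrc5 had 0.29 ± 0.74, with 0.424 to 3.18 CPM in knockout and 0 to 2.75 CPM in control libraries, and Ciita had -1.10 ± 0.73, with 0 to 4.87 and 0.624 to 5.51 CPM (edgeR adjusted p = 0.857 and 0.397). Psme1, called at 4 weeks, had -0.38 ± 0.29 (edgeR adjusted p = 0.477), with 7.88, 25.9, 17.6, 14.1 and 14.0 CPM in knockout and 15.5, 33.6, 21.4, 21.1 and 11.8 CPM in control libraries, which overlapped; with the muscle score as a term its log2 fold change was -0.03.

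**Figure D4:**
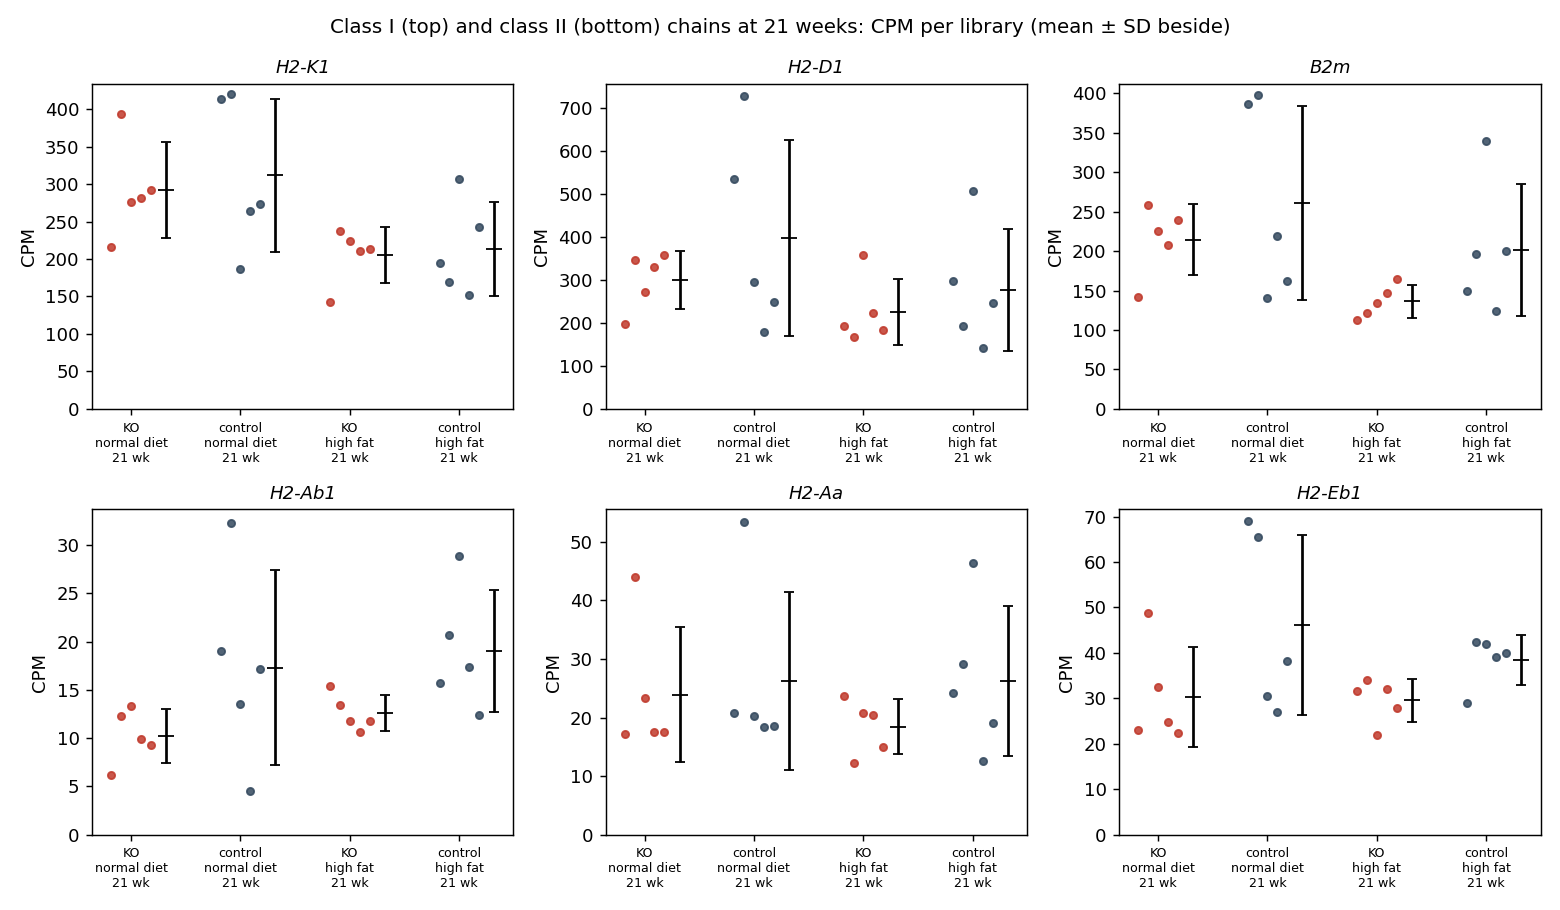
CPM of class I chains (H2-K1, H2-D1, B2m, top) and class II chains (H2-Ab1, H2-Aa, H2-Eb1, bottom) in each 21-week library (points), with mean ± SD beside, for knockout (KO, red) and control (blue-grey) on each diet. The genotypes overlap in all 6 genes on both diets, as for B2m on high fat diet, with 113 to 165 CPM in knockout and 124 to 340 CPM in control libraries.

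On high fat diet no member was called between the genotypes (0 of 31; 3 at an unadjusted p below 0.05, and 1 by DESeq2), where 0.116% of all genes were called by edgeR and 5.07% had an unadjusted p below 0.05. H2-Q10 was again lower in every knockout library. It stood at 18, 52.2, 35.4, 44.4 and 53.0 CPM in knockout, against 84.6, 73.7, 80.1, 71.2 and 70.3 CPM in control libraries. The groups did not overlap, as for 0.927% of all genes with knockout lower. The log2 fold change was -0.90 ± 0.23 with an edgeR adjusted p of 0.185; DESeq2 called it (-0.89, adjusted p = 0.0321), and over the alternatives the adjusted p ran from 0.0321 to 0.678. The other members at an unadjusted p below 0.05 were B2m (-0.57 ± 0.28) and Tap1 (-0.88 ± 0.39), with edgeR adjusted p = 0.978 and 0.877. Tap1 stood at 4.51, 4.29, 4.77, 3.81 and 4.54 CPM in knockout and at 4.89, 4.06, 13.5, 5.58 and 12.4 CPM in control libraries, with control replicates 3 and 5 above all the others. Below 0 were 26 of 31 members, against 51.7% of all genes, with a median of -0.38, against -0.01. The control libraries are other libraries than those on normal diet. H2-K1 and H2-D1 had -0.05 ± 0.23 and -0.30 ± 0.35, H2-Ab1 and H2-Aa -0.60 ± 0.33 and -0.51 ± 0.35, and Cd74 -0.23 ± 0.44, none of them called (edgeR adjusted p of 0.999 for each). Psmb8 had -0.90 ± 0.52, Psme1 -0.37 ± 0.29, Ciita -0.88 ± 0.71 and Nlrc5 -1.54 ± 0.75 (edgeR adjusted p = 0.999, 0.999, 0.999 and 0.978). Nlrc5 ran from 0.545 to 1.51 CPM in knockout and from 0.883 to 4.26 CPM in control libraries, which overlapped. Leukocyte markers summed to 23.4 to 34.5 CPM in knockout and 28.5 to 52.8 CPM in control libraries, with 7 of 8 below 0. Macrophage markers had 9 of 14 below 0 and 5 above, with a median of -0.15 and none called. They summed to 155 to 230 CPM in knockout and 153 to 236 CPM in control libraries, which overlapped. With a leukocyte score as a term, 21 of 31 members were below 0 with a median of -0.16, and H2-K1, H2-D1 and H2-Ab1 were at 0.07, 0.11 and 0.23, none of them called. Muscle markers had 25 of 27 below 0 and a median of -6.75, with 149 to 267 CPM in sum in knockout and 108 to 5380 CPM in control libraries, and none called.

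High fat diet changed no member past the test in either genotype. In control mice edgeR called 0 of 31 members (4 at an unadjusted p below 0.05, and 1 by DESeq2), against 0.795% of all genes called and 16.2% at an unadjusted p below 0.05. Below 0 were 17 members, against 50.3% of all genes, with a median of -0.06, against 0 over all genes. H2-Q10 averaged 76.0 ± 6.16 CPM on high fat and 115 ± 16.4 CPM on normal diet in control libraries (SD, n = 5 each), and no high fat library reached a normal diet one. This was a log2 fold change of -0.60 ± 0.22 (edgeR adjusted p = 0.178), and 1.03% of all genes had such a gap with high fat lower. H2-Q4 stood at 9.45, 5.12, 8.90, 0.957 and 3.68 CPM on high fat, against 1.41, 0.251, 2.62, 0.450 and 1.93 CPM on normal diet. The groups overlapped, and the log2 fold change of 1.96 ± 0.60 had an edgeR adjusted p of 0.0975 and was called by DESeq2. H2-K1 ran from 152 to 307 CPM on high fat and from 186 to 420 CPM on normal diet (-0.55 ± 0.23, edgeR adjusted p = 0.226), and H2-T22 had 1.06 ± 0.50 (edgeR adjusted p = 0.292). The class II chains ranged from -0.27 for H2-Eb1 to 0.13 for H2-Ab1. Muscle markers had 27 of 27 below 0 and a median of -3.71 on high fat over normal diet in control libraries, with 1 called lower, and summed to 108 to 5380 CPM on high fat and 301 to 44400 CPM on normal diet.

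In knockout mice high fat diet also gave 0 called members of 31 by edgeR (2 at an unadjusted p below 0.05, and 0 by DESeq2), against 0.372% of all genes called and 9.21% at an unadjusted p below 0.05. The 2 were B2m and H2-K1. B2m stood at 113, 122, 134, 147 and 165 CPM on high fat and at 142, 258, 226, 208 and 239 CPM on normal diet, with overlap from normal diet replicate 1 (-0.66 ± 0.28, edgeR adjusted p = 0.429). H2-K1 ran from 142 to 238 CPM on high fat and from 216 to 394 CPM on normal diet (-0.51 ± 0.23, edgeR adjusted p = 0.497). H2-Q10 averaged 40.6 ± 14.5 CPM on high fat and 51.6 ± 13.1 CPM on normal diet, and the groups overlapped (-0.35 ± 0.23, edgeR adjusted p = 0.719). Below 0 were 18 of 31 members, against 52.8% of all genes, with a median of -0.11, against -0.03. Muscle markers had 26 of 27 below 0 and a median of -6.15, none called, and summed to 149 to 267 CPM on high fat and 141 to 2720 CPM on normal diet.

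**Figure D5:**
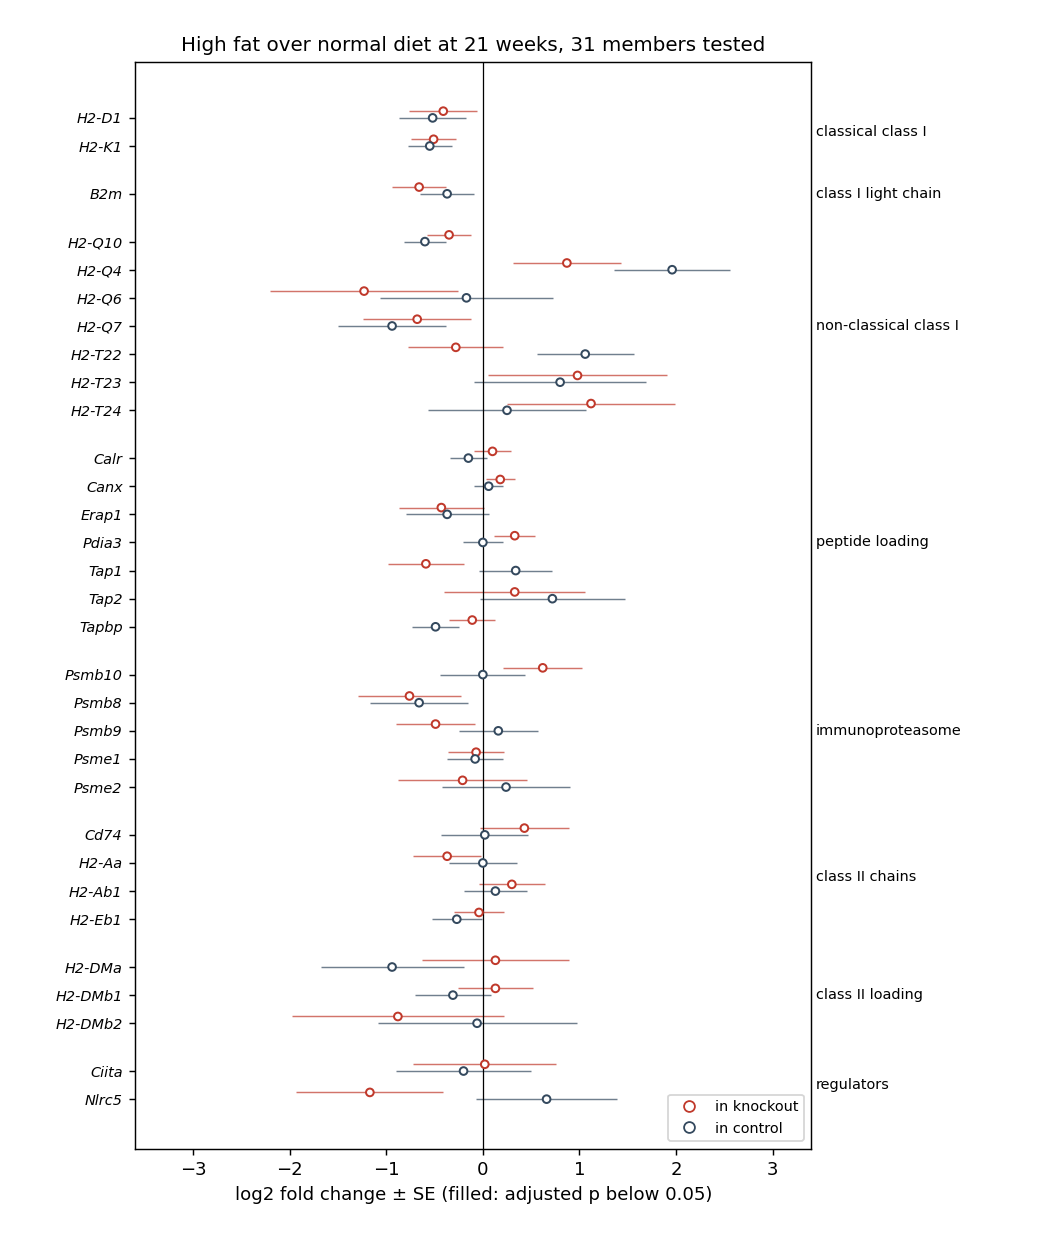
Log2 fold change ± SE of each of 31 tested members, high fat over normal diet at 21 weeks, in knockout (red) and control (blue-grey) libraries, grouped by role. No point is filled, since no adjusted p is below 0.05; H2-Q4 in control libraries, at 1.96, has the largest value.

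The genotype effect did not differ detectably between the diets for any member. edgeR called 0 of 31 members for the interaction (0 at an unadjusted p below 0.05, and 0 by DESeq2), and 0% of all genes, 6.39% of which had an unadjusted p below 0.05. Below 0 were 13 members, against 52.7% of all genes. For H2-Q10 the interaction was 0.25 ± 0.32 (edgeR adjusted p = 0.917). The interaction test was weak, since on simulated data it recovered 4% of 2-fold and 43% of 4-fold differences. At 4 weeks H2-Q10 stood at 60.5, 81.1 and 94.8 CPM (lowest, median and highest of 6) in knockout and at 49.8, 103 and 169 CPM (of 9) in control libraries, and its log2 fold change was -0.09 ± 0.29 (edgeR adjusted p = 0.914). The groups overlapped, and the difference between the ages was not tested, since the experiments differ in more than age.

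In the lists around the members few genes were called. Of 13 other genes of the class I pathway, 1 was called lower at 4 weeks, Ide, a peptide-degrading protease (-0.85 ± 0.18, edgeR adjusted p = 0.0274). On normal diet at 21 weeks 1 was called lower, Psmb5, the standard proteasome subunit that Psmb8 replaces (-1.22 ± 0.22, edgeR adjusted p = 0.00609). No other comparison called a gene of that list, and none called one of the 9 tested other genes of the class II pathway. The interferon gamma response list had 0 called genes of 18 tested at 4 weeks and of 19 tested at 21 weeks, in every comparison. Its medians in knockout over control were -0.21 at 4 weeks, -0.19 on normal diet and -0.50 on high fat diet. Of 17 tested type I interferon response genes, Ifi27l2a, an interferon-induced gene, was the only one called. It rose in knockout libraries by 1.56 ± 0.22 at 4 weeks and by 2.66 ± 0.31 on normal diet, and by 1.80 ± 0.30 on high fat over normal diet in control libraries (edgeR adjusted p = 0.00239, 0.000123 and 0.00563). The list as a whole differed in direction between comparisons. In knockout over control, 16 of 17 were below 0 at 4 weeks (median -0.30), 3 of 17 on normal diet (median 0.38) and 15 of 17 on high fat diet (median -0.62). On high fat over normal diet, 1 of 17 was below 0 in control libraries (median 0.65) and 12 of 17 in knockout libraries (median -0.31). For the interaction 16 of 17 were below 0 (median -1.03), with 0 called. Its summed level, Ifi27l2a included, was 449 to 1470 CPM in knockout and 148 to 278 CPM in control libraries on normal diet. On high fat diet it was 946 to 1430 CPM in knockout and 448 to 716 CPM in control libraries. The groups overlapped on neither diet. On high fat diet the sum was higher in knockout libraries although 15 of 17 tested genes were below 0. There it does not stand for most of the list, and a sum without Ifi27l2a was not computed. The interferon gamma list summed to 337 to 493 CPM in knockout and 371 to 482 CPM in control libraries on normal diet, which overlapped, and in set 1 at 4 weeks to 510 to 531 CPM in knockout and 626 to 659 CPM in control libraries, which did not.

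The authors' deposited table for 4 weeks called 1 member higher and 2 lower, of 4.3% of genes called at an adjusted p below 0.05. In the authors' deposited table these were H2-M9 (1.90, adjusted p = 0.0035), Psme1 (-0.53, adjusted p = 0.0149) and H2-T22 (-0.82, adjusted p = 0.0327). The authors' deposited table for 21 weeks called 1 member higher and 1 lower, of 3.52% of genes. In the authors' deposited table these were H2-M9 (5.10, adjusted p = 0.0422) and H2-Q10 (-2.12, adjusted p = 0.000725), and its diet groups were not given in the sources used here.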

How the data were processed

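Brown fat RNA of knockout and control mice was sequenced with a QuantSeq 3' kit, per the labels' protocols. Per the submitters' processing notes, STAR 2.5.3a, featureCounts and limma were used on mm10 and GRCm38; annotation and strand setting were not given in the sources used here. Raw counts per gene were deposited for each experiment by the authors, and tables of log2 fold changes with p-values and adjusted p-values deposited by the authors were only quoted. Of the 21-week rows, 18 with date-like names (0.09% of counts) were left out, and 0 sample columns were left unmatched.

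Counts were filtered with filterByExpr (minimum count 10, 10366 of 10731 and 12082 of 13233 genes kept), scaled by TMM and tested with the robust quasi-likelihood test of edgeR 4.0.16 in R 4.3.3, adjusted by Benjamini-Hochberg over all genes and called below 0.05. The 4-week model held genotype and labelled sex, and the 21-week model its 4 groups with a contrast per comparison. CPM were computed on the TMM-adjusted library size, and a standard error is the fold change over the root of F. Alternatives were DESeq2 1.42.0, its size factors, limma-voom 3.58.1, other filters, covariates, library sets and leaving out libraries. No pair of libraries of a group matched within sampling noise (lowest chi-square 5.19 per gene, over genes with 20 or more counts in the pair). Depth was 3069035 to 8140213 and 2398807 to 7693388 counts per library. On simulated data with 100 genes changed 2-fold and 100 changed 4-fold, the 4-week genotype test recovered 66% and 95% with 4 false calls among 10366 genes, and the 21-week one 21% and 69% on normal diet with 1 and 23% and 73% on high fat diet with 9 among 12082 genes. For diet it recovered 24% and 67% in control and 23% and 73% in knockout libraries.

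Members, lists and tests were chosen with earlier results of these data known. The rule for naming gives library values or ranges of members called in at least 1 comparison and of H2-K1, H2-D1, B2m, Tap1, Psmb8, H2-Ab1, H2-Aa, Cd74, Nlrc5 and Ciita, other members by role, and up to 3 called genes of each further pathway list; genes singled out otherwise were chosen after their values were seen. Positions and overlaps are from GENCODE M21 on GRCm38.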

Additional observations from a re-analysis of the deposited data

Results flagged for a closer look

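In 78 groups of libraries of 13 members, 7 held a library far from the others. Chance gives about 1 in 20 groups only for normally spread values, which was not checked for these CPM. H2-K1 was at 142 CPM in knockout replicate 1 on high fat diet, with the next at 211 CPM, and Nlrc5 was at 1.51 CPM in knockout replicate 5 of that group, with the next at 0.769 CPM. Tap1 was at 27.1 CPM in 4-week knockout replicate 6, with the next at 12.1 CPM, and Psme1 was at 56.3 CPM in 4-week control replicate 5, with the next at 48.5 CPM. On normal diet at 21 weeks, H2-Aa was at 44.0 CPM in knockout replicate 2, with the next at 23.3 CPM, and at 53.4 CPM in control replicate 2, with the next at 20.7 CPM. H2-M9 was at 0.999 CPM in control replicate 3 on normal diet, with the others at 0, so that any count there would have been flagged.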

How the results depend on the processing

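Left-out libraries changed the member count only at 4 weeks, where it ran from 0 to 2 (1 as reported). There DESeq2 called 2 members (H2-T24 and Psme1). The count was 0 among libraries labelled female, with a leukocyte score, with no term for sex, without the robust option, with the replicate block and within either library set. Without the filter, and without the 2 libraries whose Xist went against the label, the 1 call was H2-M9 in place of Psme1 (adjusted p of Psme1 0.0523 and 0.0623). Leaving out those 2 libraries, the leukocyte score at 4 weeks, the genotype by set model and the unfiltered value of H2-M9 were chosen after seeing the data. On normal diet at 21 weeks the 1 call became 0 with a muscle score and without control replicates 2 and 4. On high fat diet DESeq2 called 1 member, and for diet in control libraries DESeq2 also called 1, where edgeR called 0. The cause of these differences was not tested.

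Genes called over all genes at 4 weeks, 86 as reported, were 315 by DESeq2, 218 with library set in place of sex, 20 with the leukocyte score and 2 with the replicate block. On normal diet, 320 as reported, they were 884 by DESeq2, 135 by limma-voom, 157 with the replicate block, 49 from the compared groups alone and 43 with the muscle score.

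Deviations of same-numbered libraries correlated over 0.1 in 2 of 6 pairs at 4 weeks and 6 of 30 at 21 weeks. Among differently numbered pairs this held for 26 of 48 and 31 of 120. At 21 weeks same-numbered libraries were thus no more alike than others. At 4 weeks the library sets were left in the deviations, so this check cannot show whether numbers pair there. The replicate block gave 0 called members at 4 weeks and 1 on normal diet, and 0 in the other comparisons. H2-M9 at 4 weeks stayed called in 6 of 10 other alternatives. No called value changed sign. Low counts limit H2-M9, H2-M3, Nlrc5, Ciita and H2-DMb2, and power at 21 weeks was low for 2-fold changes.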

Other observations

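H2-M3, a class Ib gene that presents formylated peptides, was too low for the filter at 21 weeks. It averaged 0.694 ± 0.403 CPM in knockout and 0.0628 ± 0.14 CPM in control libraries on normal diet, and 0.843 ± 0.778 CPM in knockout and 1.38 ± 1.70 CPM in control libraries on high fat diet (SD, n = 5 each). Without the filter neither was called (edgeR adjusted p = 0.231 and 1). Tap2 spread widely within groups, with 59.4 ± 29.5 CPM in knockout and 20.7 ± 22.9 CPM in control libraries on normal diet, and was not called (1.47 ± 0.76, edgeR adjusted p = 0.280).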
